A study of Homo sapiens with 7 samples.

Results

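In 501Mel cells, 401 genes lay on the same side of control under both short hairpin RNAs against GRASLND, 238 of them higher and 163 lower. They were chosen by their own values. All 4 knockdown libraries had to lie at least 1.3 times above the highest control library, or at least 1.3 times below the lowest one, among 12050 genes whose mean over the 7 libraries reached 50 normalized counts. The rule thus took 1.98% of those genes as higher and 1.35% as lower, out of 21305 genes in the table. Because the knockdown against control values selected the members, that contrast is described here without a test, and only sh4 against sh8, which the rule did not set against each other, was tested. One more gene, H3C14, met the rule as written only because 6 of its 7 values were 0, and it was left out of both sets.

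501Mel is a human melanoma cell line that makes pigment proteins, and GRASLND is a long non-coding RNA. All 7 libraries came from total RNA of cells treated with doxycycline, which switches on a hairpin carried by a lentiviral vector. The groups were shlacZ (n = 3, a hairpin against the bacterial lacZ gene, the control), sh4 (n = 2) and sh8 (n = 2), the latter pair both against GRASLND. According to the methods, the cells were pools of stable transductants selected with puromycin and not single clones. No labels say that replicates were separate cultures, so p-values measure the spread between these libraries, which may be technical.

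Each hairpin loads a small guide RNA that lowers its intended transcript and can also lower other transcripts that pair with part of the guide, which is why more than 1 hairpin is used against a target. Melanoma cells of the melanocytic kind express pigment enzymes and melanosome proteins under the factors MITF and SOX10. They can shift to states with fewer of these and more adhesion, matrix and neural genes, a change known as phenotype switching.

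Depth, recovered from the smallest step of each column, ranged from 13337317 to 22855232 reads per library. The 7 melanocytic markers summed to between 135575 and 146343 normalized counts under shlacZ, 51868 to 59737 under sh4 and 101544 to 104484 under sh8. Of 15 markers of keratinocytes, fibroblasts, endothelial cells, leukocytes and epithelium, 11 were not in the table, COL1A1, PDGFRA and CDH1 never passed 16.5 normalized counts, and only CD68 was clearly present, at 441 to 675. In bulk RNA, fewer cells of a kind and less RNA per cell cannot be told apart. The library shlacZ replicate 1 stood apart, with a median absolute log2 difference of 0.277 and 0.244 to the other shlacZ libraries against 0.130 between those. It was closer to sh8 replicate 1 (0.209) than to either other control, and about as close to sh8 replicate 2 (0.2485) as to shlacZ replicate 3. The rule applied without it gave 507 higher and 554 lower genes. Without it 398 of the 401 genes still met the rule, which follows from the rule itself, since fewer libraries then have to agree and only the minimum mean can remove a gene. GRASLND itself (ENSG00000228203) gave 309, 329.9 and 289.7 normalized counts in the shlacZ libraries, 175 and 131 under sh4 and 227 and 163 under sh8. All knockdown libraries lay below all controls, but sh8 replicate 1 came within 1.3 times of the lowest control, so the targeted RNA is not among the members.

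The promoters of 6 members are shown because their genes recur in the results and their letters hold motifs discussed further on. Each line gives 250 bases upstream of the RefSeq transcript start on GRCh38.p14, 5′ to 3′ on the strand of the gene, with every match on either strand to TATAAA in capitals, and likewise each match to TGANTCA (the letters of an AP-1 site) and to the M-box read by MITF, TCATGTG. RNASE1 (chr14:20802845-20803094, minus strand), RUNX2 (chr6:45328080-45328329, plus) and SLC2A1 (chr1:42958869-42959118, minus) belong to the higher set. SLC5A4 (chr22:32255348-32255597, minus), H2AZ1 (chr4:99950276-99950525, minus) and CEACAM1 (chr19:42528482-42528731, minus) belong to the lower set.
RNASE1: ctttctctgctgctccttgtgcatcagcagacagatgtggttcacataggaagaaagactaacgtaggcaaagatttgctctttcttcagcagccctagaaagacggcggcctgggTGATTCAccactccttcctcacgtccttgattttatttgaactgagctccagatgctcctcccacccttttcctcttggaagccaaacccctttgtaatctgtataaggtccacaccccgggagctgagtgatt
RUNX2: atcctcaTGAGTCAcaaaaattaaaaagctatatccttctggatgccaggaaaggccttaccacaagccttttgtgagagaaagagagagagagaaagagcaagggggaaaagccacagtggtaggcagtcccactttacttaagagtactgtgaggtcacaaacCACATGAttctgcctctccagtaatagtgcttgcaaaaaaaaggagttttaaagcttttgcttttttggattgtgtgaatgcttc
SLC2A1: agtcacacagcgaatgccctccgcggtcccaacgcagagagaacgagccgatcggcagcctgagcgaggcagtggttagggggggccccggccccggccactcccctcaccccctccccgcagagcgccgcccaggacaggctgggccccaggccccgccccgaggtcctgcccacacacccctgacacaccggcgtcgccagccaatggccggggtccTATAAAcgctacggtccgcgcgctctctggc
SLC5A4: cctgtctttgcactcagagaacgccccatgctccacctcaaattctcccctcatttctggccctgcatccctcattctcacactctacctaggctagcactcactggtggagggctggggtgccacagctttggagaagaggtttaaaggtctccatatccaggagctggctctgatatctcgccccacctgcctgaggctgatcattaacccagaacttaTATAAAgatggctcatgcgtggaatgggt
H2AZ1: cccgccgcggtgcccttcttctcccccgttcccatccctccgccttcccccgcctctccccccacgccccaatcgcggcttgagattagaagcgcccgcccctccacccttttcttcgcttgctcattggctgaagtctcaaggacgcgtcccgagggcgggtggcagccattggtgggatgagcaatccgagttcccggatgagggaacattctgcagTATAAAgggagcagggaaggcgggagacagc
CEACAM1: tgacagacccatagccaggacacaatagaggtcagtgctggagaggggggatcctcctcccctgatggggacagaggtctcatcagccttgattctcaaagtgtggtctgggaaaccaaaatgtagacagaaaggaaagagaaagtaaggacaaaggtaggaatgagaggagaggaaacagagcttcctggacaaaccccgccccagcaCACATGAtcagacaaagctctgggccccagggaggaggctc

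The median level over all 7 libraries was 436 normalized counts for the higher genes and 682 for the lower genes, against 565 for all genes with a mean of at least 50. Some higher genes with very low control values reached that mean only through the knockdown libraries. The median gene of the higher set stood 2.21 times above control and the median gene of the lower set 2.01 times below it. A separation was defined as the lowest value of the upper side over the highest value of the lower side. It had a median of 1.496 in the higher set and 1.44 in the lower set, and reached at least 2 for 33 and 12 genes. At the threshold itself, ENSG00000271533 and BCKDHA entered the higher set at 1.3001 and 1.3008, whereas SPATS2L, SERTAD2 and ACSL4 missed it at 1.296, 1.295 and 1.294. Among lower genes ENSG00000291065, PRPS2 and TRIP13 entered at 1.3008, 1.3013 and 1.3015 and TMTC2, POPDC3 and PSMG1 missed at 1.299, 1.299 and 1.298.

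The widest separation among the higher genes belonged to RNASE1, a secreted ribonuclease, at 10.5. OTULINL, a catalytically inactive relative of the deubiquitinase OTULIN, gave 37.2, 26.2 and 30.4 normalized counts in the shlacZ libraries, 645 and 1002 under sh4 and 179 and 210.2 under sh8, which put every knockdown library at least 4.82 times above every control. RUNX2, a transcription factor of bone formation that is also active in melanoma, gave 130.0, 215 and 178 normalized counts in the shlacZ libraries, 770.2 and 867 under sh4 and 799 and 865 under sh8. Its 4 knockdown values lay within a narrow band and its mean was 4.73 times the control. SLC24A4, a sodium, potassium and calcium exchanger linked to hair and skin colour, gave 165, 192 and 220.1 normalized counts in the shlacZ libraries, 1022 and 684 under sh4 and 726 and 587 under sh8. CADPS, which primes dense-core vesicles for release, gave 108, 200.1 and 213 normalized counts in the shlacZ libraries, 1591 and 1639 under sh4 and 713 and 635 under sh8. Here both sh4 libraries lay above both sh8 libraries, and all 4 lay above control. SNTB1, a syntrophin of the dystrophin complex, gave 240.5, 218 and 220.1 normalized counts in the shlacZ libraries, 1038 and 1145 under sh4 and 571 and 614 under sh8. Where a mean ± SD under knockdown (n = 4) is given, here and below, it pools both hairpins. Its SD then includes any difference between sh4 and sh8 and is not a spread of replicates. ITGA1, the collagen-binding integrin alpha 1 chain, averaged 139 ± 16.2 (SD, n = 3) under shlacZ and 1070.0 ± 751 (SD, n = 4) under knockdown, with a wide spread because the sh4 libraries (1561 and 1858) far exceeded the sh8 libraries (361 and 499.6).

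Among the lower genes PLCH1-AS1, an antisense long non-coding RNA, had the widest separation, 5.67. PRDM7, a histone methyltransferase gene with a near-identical copy, PRDM9, gave 1394, 572 and 513 normalized counts in the shlacZ libraries, 101 and 41.05 under sh4 and 116 and 74.6 under sh8. Its shlacZ replicate 1 was the highest value by far, and the lowest control still lay 4.42 times above the highest knockdown library. The count may be shared with PRDM9 reads and is uncertain for that reason. SLC5A4, of the sodium and glucose transporter family, gave 391, 224 and 249 normalized counts in the shlacZ libraries, 70.02 and 38.8 under sh4 and 56.7 and 62.8 under sh8. LONRF2, a RING finger protein with a LON domain, gave 4752, 5264 and 4599 normalized counts in the shlacZ libraries, 1511 and 1617 under sh4 and 1466 and 1308 under sh8, and both hairpins ended at a similar level. CDH7, a neural crest cadherin, gave 181, 168 and 169 normalized counts in the shlacZ libraries, 16.9 and 14.2 under sh4 and 44.8 and 70.1 under sh8. SWAP70, which binds actin and activates Rac, gave 4417, 4978 and 4372 normalized counts in the shlacZ libraries, 1811 and 1491 under sh4 and 2346 and 2104 under sh8. POU3F1, a POU domain transcription factor, averaged 656 ± 82.2 (SD, n = 3) under shlacZ and 212 ± 78.7 (SD, n = 4) under knockdown.

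**Figure D1:**
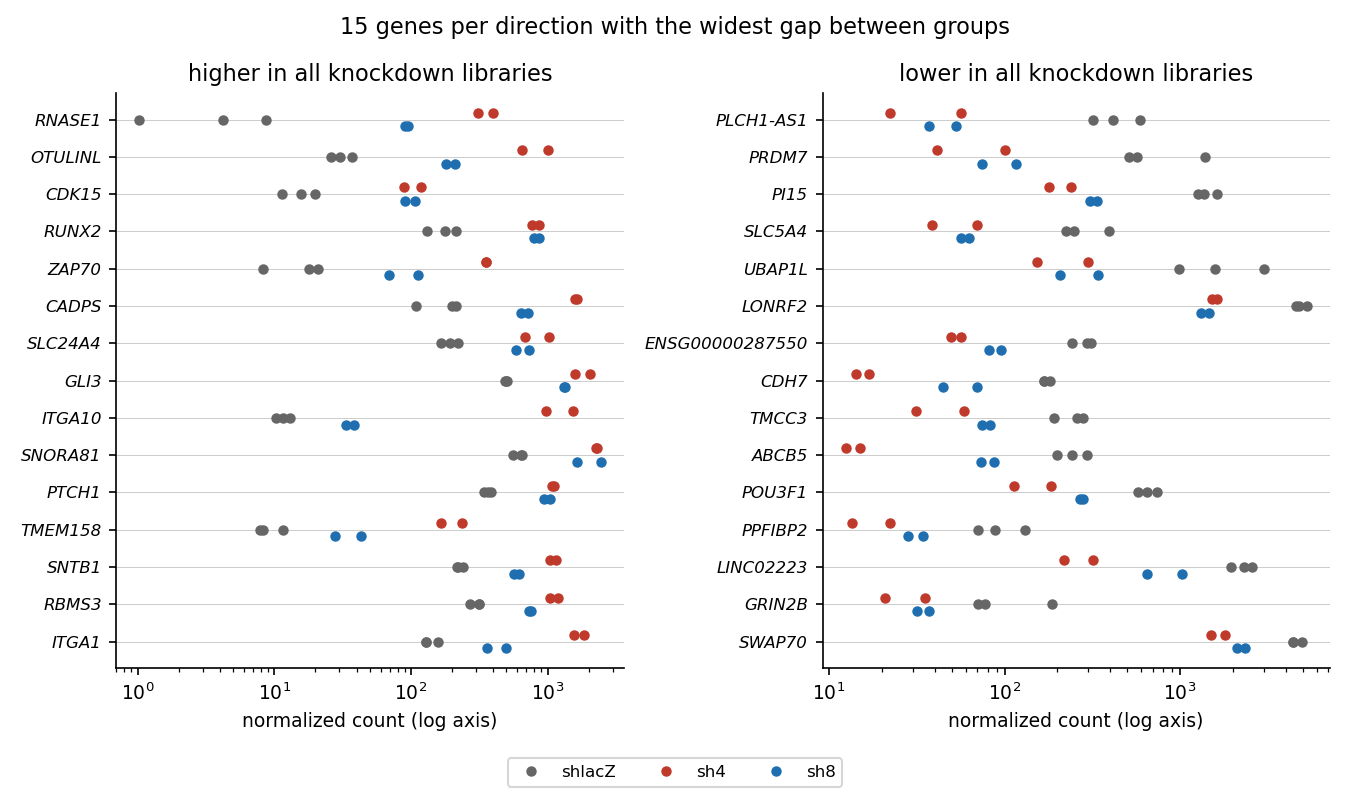
Normalized counts on a log axis in each of the 7 libraries (grey shlacZ, red sh4, blue sh8) for the 15 genes per direction with the widest separation. No knockdown point crosses into the control range because the rule required this, while the distance between red and blue points differs from gene to gene, from nearly none (RUNX2, LONRF2) to more than 20 times (ITGA10).

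Which functions do these genes serve? Of the 401 genes, 83 fell in at least 1 of 46 lists of pathways, complexes and gene families, and 318 fell in none. Of the listed members 46 were higher and 37 lower. Across all genes with a mean of at least 50, the median log2 ratio of knockdown over control was -0.04, and each list median below should be read beside it. Each list count should likewise be read beside 1.98% higher and 1.35% lower over all genes.

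Most pigment genes belonged to neither set, and those that met the rule were mostly lower. Of 27 measured genes for pigment synthesis and melanosomes, 4 were lower (DCT, MLANA, OCA2 and PMEL), 1 was higher (SLC24A4) and the list median was -0.27. Over all genes 1.35% were lower and 1.98% higher. MLANA, a melanosome membrane protein, gave 8640.5, 7531 and 7690.2 normalized counts in the shlacZ libraries, 3330.4 and 2077 under sh4 and 5298 and 5291 under sh8. OCA2, which sets melanosome pH, gave 610.0, 546 and 452 normalized counts in the shlacZ libraries, 285 and 149 under sh4 and 327 and 216 under sh8. DCT and TYRP1 are sister enzymes of tyrosinase, yet only DCT met the rule; TYRP1 gave 36836, 52194 and 45912 normalized counts in the shlacZ libraries, 10416 and 11194 under sh4 and 32891 and 29979.9 under sh8. Tyrosinase itself, TYR, was not lower, with 8795, 8192 and 9420.5 normalized counts in the shlacZ libraries, 10288 and 9183 under sh4 and 9200.5 and 11314 under sh8. Of the lineage factors, 14 measured, LEF1 was higher and PPARGC1A, a coactivator of mitochondrial biogenesis that MITF drives in melanoma, was lower. PPARGC1A gave 5429, 2749 and 2500.2 normalized counts in the shlacZ libraries, 1902 and 1603 under sh4 and 1475 and 1790.1 under sh8. Its shlacZ replicate 1 stood well above the other controls, and the lowest control lay 1.31 times above the highest knockdown library. RXRG, a retinoid receptor used as a marker of neural crest-like melanoma cells, was the only member of its list of 10 and was lower, averaging 471 ± 56.4 (SD, n = 3) under shlacZ and 216 ± 60.4 (SD, n = 4) under knockdown. MITF and SOX10 were outside both sets, but not unchanged in level. MITF gave 22076, 20552 and 17326 normalized counts in the shlacZ libraries, 12619 and 11635 under sh4 and 19031 and 17418 under sh8. Its sh4 values thus lay below all controls and its sh8 values within their range. SOX10 gave 8259, 8523 and 9084 in the shlacZ libraries, 4410 and 3213 under sh4 and 5913 and 7381 under sh8. All its knockdown values lay below all controls, with a separation of 1.12.

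Adhesion, matrix and axon guidance genes that met the rule were mostly higher, and their counts stand beside 1.98% higher and 1.35% lower over all genes. Of 12 measured integrins 2 were higher (ITGA10 and ITGA1) and none lower, and of 17 collagens, laminins and matrix glycoproteins 2 were higher (MATN3 and LAMB1) and none lower. LAMB1, a laminin beta chain, gave 1246, 1881 and 1648 normalized counts in the shlacZ libraries, 3128 and 5047 under sh4 and 3139.8 and 3069.7 under sh8. MMP14, a membrane-bound collagenase that appears in the mesenchymal and protease lists, gave 1597, 2471 and 2409 normalized counts in the shlacZ libraries, 4893 and 5799 under sh4 and 3997 and 5042 under sh8. A2M, a broad protease inhibitor, averaged 140.1 ± 6.16 (SD, n = 3) under shlacZ and 580.5 ± 269 (SD, n = 4) under knockdown. The protease and inhibitor list (25 measured) also held a lower gene, PI15, at a separation of 3.78, among the widest of the lower set. In the list of cadherins and cell junction proteins (22 measured) JUP and CDH19 were higher and CDH7 was lower. Of 31 axon guidance genes 3 were higher (SEMA3A, ROBO2 and PLXNA2) and 1 lower (SEMA6A), with a list median of 0.53. ROBO2, a receptor for SLIT proteins, gave 1200.3, 1096 and 992 normalized counts in the shlacZ libraries, 2125 and 1989 under sh4 and 2009 and 1888 under sh8, with both hairpins at one level. SEMA6A, a transmembrane semaphorin, gave 6934, 6302 and 5152 normalized counts in the shlacZ libraries, 1961 and 1334 under sh4 and 3929 and 3184 under sh8. Of 16 granins, synaptic and secretory proteins 4 were higher (CADPS, RAB3B, RIMS3 and SYT11) and 1 lower (NLGN1), and all the higher ones act in vesicle traffic. Under shlacZ, RAB3B, RIMS3, ITGA10 and JUP averaged 11.9, 38.3, 11.6 and 44.9 normalized counts, and only their knockdown libraries brought them to the minimum mean. They count as measured because they were higher, so the higher lean of their lists is partly built in. CDH7, at 36.5 under knockdown, conversely reached that mean only through its shlacZ libraries. RAB3B, a small GTPase on secretory vesicles, gave 12.4, 9.43 and 13.9 normalized counts in the shlacZ libraries, 84.7 and 178 under sh4 and 29.0 and 48.2 under sh8. SYT11, a synaptotagmin, gave 560.4, 643 and 751 normalized counts in the shlacZ libraries, 1882 and 2622 under sh4 and 982 and 1269.6 under sh8. NLGN1, a cell adhesion protein of synapses, gave 751, 697 and 659 normalized counts in the shlacZ libraries, 343 and 296 under sh4 and 453 and 389 under sh8.

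Nucleotide and one-carbon synthesis was the list with the most lower genes, 5 of 47 measured (PPAT, MTHFD2, ODC1, PSPH and PRPS2), and had none higher. These counts stand beside 1.35% lower and 1.98% higher over all genes. PPAT catalyses the first committed step of purine synthesis and gave 1845, 2116 and 2204 normalized counts in the shlacZ libraries, 1136 and 1316 under sh4 and 725 and 860.0 under sh8. MTHFD2, a mitochondrial folate enzyme, gave 1806, 2297 and 2094 normalized counts in the shlacZ libraries, 542 and 627 under sh4 and 1302 and 1242 under sh8. PRPS2, which makes the ribose phosphate used for nucleotides, gave 862, 995 and 849 normalized counts in the shlacZ libraries, 370.4 and 434 under sh4 and 652 and 609.8 under sh8, just inside the threshold. PSPH, the last enzyme of serine synthesis, averaged 456 ± 19.2 (SD, n = 3) under shlacZ and 276 ± 36.1 (SD, n = 4) under knockdown, and ODC1, the first enzyme of polyamine synthesis, 1579 ± 273 (SD, n = 3) under shlacZ and 826 ± 170.1 (SD, n = 4) under knockdown. The list median was -0.45 and 43 of the 47 genes had a ratio below 0. The processed copy MTHFD2P1 was in the opposite set and gave 76.4, 225 and 169.6 normalized counts in the shlacZ libraries, 508 and 716 under sh4 and 635 and 645 under sh8. A pseudogene close in sequence to its parent can exchange reads with it in quantification, so its value is uncertain.

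Several growth lists leaned lower as a whole without entering the lower set. All 84 cytosolic ribosomal protein genes had a ratio below 0 (median -0.30), as did 97 of 98 genes of ribosome biogenesis (median -0.44) and 80 of 86 genes of mitosis (median -0.21), yet none of these was among the 401. Over all genes 6536 of 12050 had a ratio below 0. Lower members from neighbouring lists were single genes, namely RFC4 of DNA replication (1 of 59), PALB2 of recombination repair (1 of 46), MRPS9 of the mitochondrial ribosome (1 of 78) and TRAP1 of the chaperones (1 of 46). In the list of cyclins, their kinases and inhibitors, E2F and RB (45 measured), CDK15 and MXD4 were higher and CDK2 was lower. CDK15, at a separation of 4.46, averaged 15.7 normalized counts under shlacZ and reached the minimum mean only through the knockdown libraries. CDK2, the kinase of S phase entry, gave 14681, 13195 and 12973 normalized counts in the shlacZ libraries, 7297 and 6363 under sh4 and 8640.3 and 8670.4 under sh8. Among 58 measured histone genes 2 were lower, H2AZ1 and H2AC17, and the list median was -0.53. H2AZ1, a variant made outside S phase as well, averaged 11079 ± 963 (SD, n = 3) under shlacZ and 6367 ± 1145 (SD, n = 4) under knockdown. TERT, the telomerase catalytic subunit, which lay in no list, gave 666, 633 and 578 normalized counts in the shlacZ libraries, 216 and 163 under sh4 and 429.7 and 286 under sh8. MXD4, a MAX partner that opposes MYC, was higher and averaged 74.3 ± 18.2 (SD, n = 3) under shlacZ and 255 ± 64.7 (SD, n = 4) under knockdown. No member came from the lists of interferon-stimulated genes (30 measured), MHC class I presentation (16), the proteasome (43), translation factors (55) or p53 targets (25). Over all genes 1.98% were higher and 1.35% lower. At those shares lists of this size would hold few members or none, so the absence says little about these lists.

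**Figure D2:**
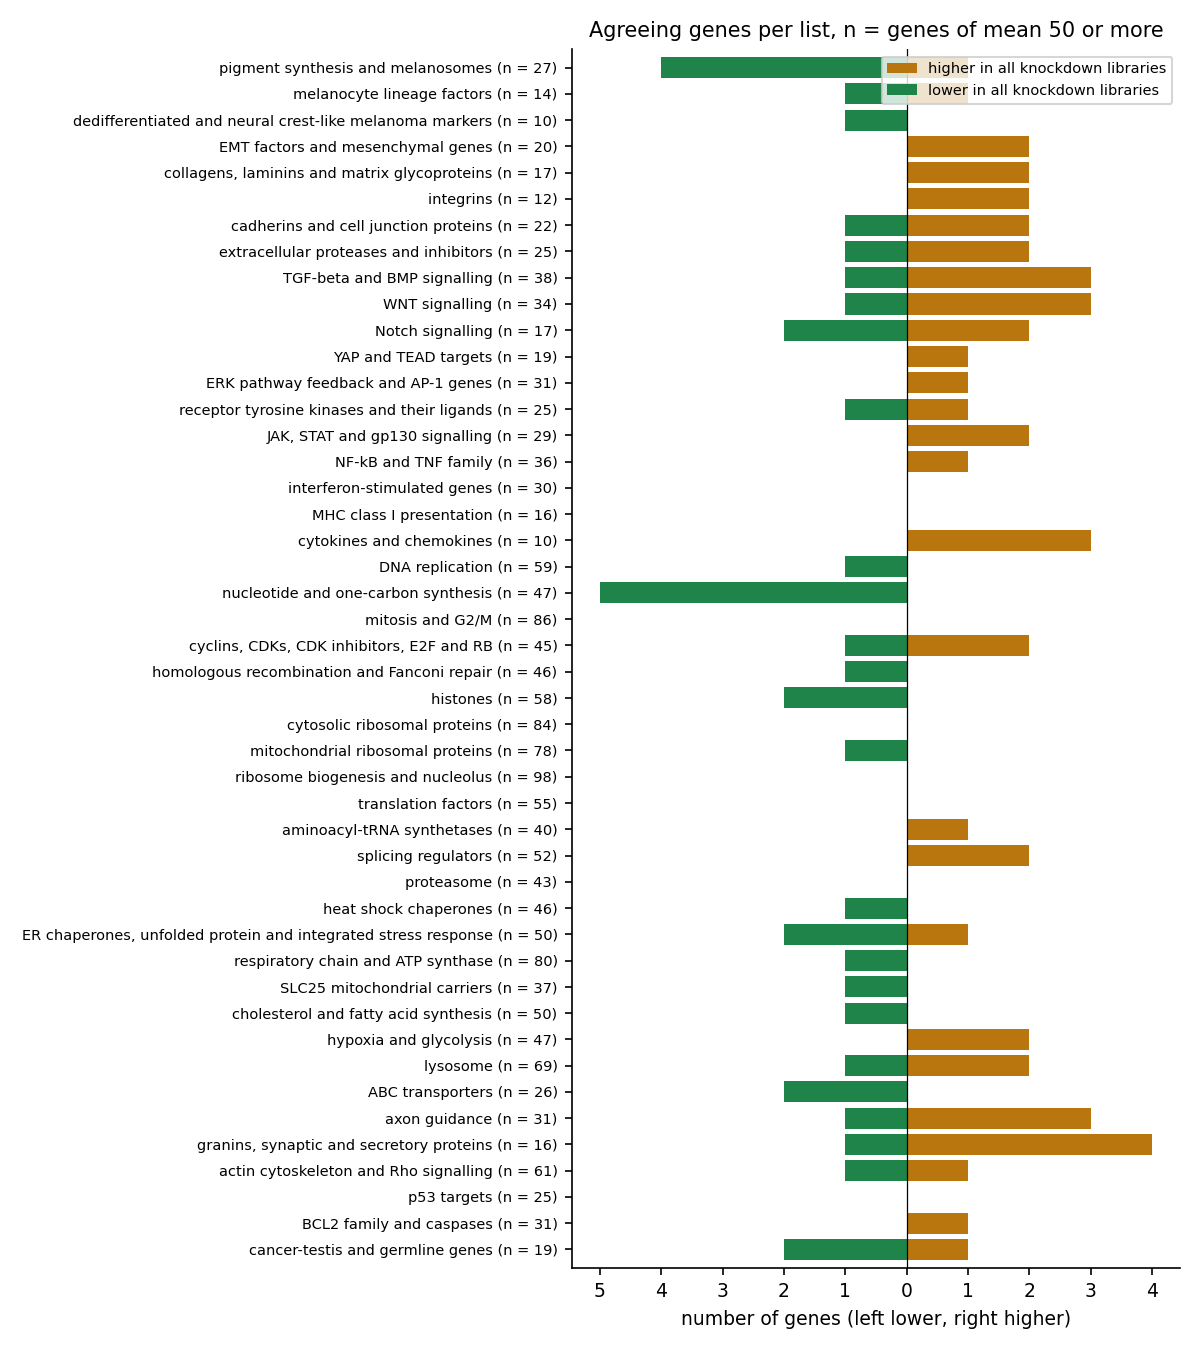
Number of agreeing genes per list, higher to the right and lower to the left, with n the genes of the list that had a mean of at least 50. Nucleotide and one-carbon synthesis has the longest lower bar (5 genes) and the granin, synaptic and secretory list the longest higher bar (4 genes), while 8 of 46 lists have no bar.

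Signalling pathways contributed members on both sides, and their counts stand beside 1.98% higher and 1.35% lower over all genes. In the WNT list of 34 measured genes LEF1, TLE4 and NKD1 were higher and NKD2 was lower. LEF1, a nuclear partner of beta-catenin, gave 1258, 2134 and 2166 normalized counts in the shlacZ libraries, 5029 and 7072 under sh4 and 3170.1 and 3243 under sh8. The feedback inhibitors NKD1 and NKD2 lay on opposite sides, since NKD1 gave 622, 843 and 847 normalized counts in the shlacZ libraries, 2716 and 3673 under sh4 and 1417 and 1274 under sh8, whereas NKD2 gave 135, 123 and 132 normalized counts in the shlacZ libraries, 36.1 and 20.2 under sh4 and 88.3 and 92.8 under sh8. In the Notch list of 17 the coactivators MAML2 and MAML3 were higher, and the ligand JAG1 and the target gene HES1 were lower. MAML2 gave 1509.9, 1201 and 1168 normalized counts in the shlacZ libraries, 2290.3 and 2105 under sh4 and 2083 and 2219.7 under sh8. JAG1 gave 8357, 7646 and 8994 normalized counts in the shlacZ libraries, 5302 and 5178 under sh4 and 4082 and 4561 under sh8 and HES1 541, 543 and 579 in the shlacZ libraries, 174 and 199 under sh4 and 308 and 304 under sh8. In the list of 38 TGF-beta and BMP genes SMAD3, SMURF2 and BMPR2 were higher and SMAD9 was lower. SMAD3, which carries TGF-beta signals to the nucleus, gave 215, 217 and 233 normalized counts in the shlacZ libraries, 647 and 696 under sh4 and 368 and 491 under sh8. SMAD9, which carries BMP signals, averaged 595 ± 119.9 (SD, n = 3) under shlacZ and 311 ± 37.6 (SD, n = 4) under knockdown. BMPR2, a type II BMP receptor, was one of the most abundant higher genes, at 4569, 6208 and 6456 in the shlacZ libraries, 9218 and 10950.4 under sh4 and 13761 and 14442 under sh8.

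Of the receptor and cytokine lists, MET, the receptor for hepatocyte growth factor, was lower with 11393, 13101 and 12747 normalized counts in the shlacZ libraries, 3566 and 3888 under sh4 and 6921 and 8019.6 under sh8. IRS1, the adaptor of the insulin receptor, was higher with 422, 505 and 511 normalized counts in the shlacZ libraries, 1069 and 1278 under sh4 and 874 and 1079 under sh8. The list of JAK, STAT and gp130 signalling (29 measured) gave STAT6 and IL6ST, both higher, beside 1.98% higher over all genes. IL6ST, the shared gp130 receptor chain, averaged 1877 ± 154 (SD, n = 3) under shlacZ and 2971 ± 543 (SD, n = 4) under knockdown. Of 10 measured genes in the cytokine and chemokine list STC1, CMTM3 and IL16 were higher, beside 1.98% higher over all genes. STC1 averaged 47.4 normalized counts under shlacZ and reached the minimum mean only through the knockdown libraries. IL16 gave 1437, 1444 and 1519.8 normalized counts in the shlacZ libraries, 2151 and 2269 under sh4 and 2808 and 2495 under sh8.

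The hypoxia and glycolysis list (47 measured) held 2 higher genes, STC1 and SLC2A1, beside 1.98% higher over all genes. SLC2A1, the glucose transporter GLUT1, gave 1209.6, 1656 and 1813 normalized counts in the shlacZ libraries, 2804 and 3738 under sh4 and 2917 and 3199 under sh8, and SLC2A1-DT, the non-coding transcript that starts 155 bases away on the other strand, gave 53.7, 15.7 and 37.4 normalized counts in the shlacZ libraries, 112 and 89.6 under sh4 and 79.1 and 91.9 under sh8. In the lysosome list of 69, FUCA1 and ATP6V0A1 were higher and TFEB, a transcription factor that switches on lysosome genes, was lower. TFEB gave 248, 168 and 220.1 normalized counts in the shlacZ libraries, 76.8 and 49.3 under sh4 and 80.4 and 110.1 under sh8 and FUCA1, a fucosidase, gave 240.5, 279 and 339 in the shlacZ libraries, 992 and 1458 under sh4 and 642 and 932 under sh8. Of 26 ABC transporters ABCB5 and ABCC4 were lower, beside 1.35% lower over all genes. Of 31 genes of the BCL2 family and caspases only BMF, a BH3-only protein that promotes cell death, was a member, at 193, 143 and 160.1 normalized counts in the shlacZ libraries, 729.6 and 744 under sh4 and 332 and 495 under sh8.

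Some gene families had members on both sides. The groupings that follow were chosen after the values were seen, so how often families divide cannot be read from them. All 3 RUNX factors were members, RUNX2 and RUNX3 higher and RUNX1 lower. RUNX3 gave 795, 1225 and 1231 normalized counts in the shlacZ libraries, 2995 and 3266 under sh4 and 1906 and 2212 under sh8 and RUNX1 265, 459.8 and 308 in the shlacZ libraries, 167 and 144 under sh4 and 171 and 130.1 under sh8. Their shared partner CBFB belonged to neither set. Of 9 measured Hedgehog pathway genes, GLI3 and the receptor PTCH1, itself a target gene of the pathway, were higher, and the coreceptor CDON was lower. GLI3, a zinc finger factor of the pathway, gave 496, 485 and 505 normalized counts in the shlacZ libraries, 1592 and 2035 under sh4 and 1312 and 1331 under sh8. PTCH1 gave 386, 368 and 342 normalized counts in the shlacZ libraries, 1076 and 1112 under sh4 and 935 and 1040.2 under sh8, and CDON 925, 853 and 879.5 in the shlacZ libraries, 533 and 496 under sh4 and 526 and 516 under sh8. For PTCH1 and CDON the sh4 and sh8 values were close to each other beside the distance to control. For GLI3 both sh4 values lay above both sh8 values, a difference that did not pass limma's test (adjusted p = 0.10). GLI1, the factor most often read as pathway output, had at most 15.5 normalized counts in any library, under the minimum mean.

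Amino acid transporters of the SLC7 family also divided. The cystine carrier SLC7A11 gave 2524, 3414 and 2858 normalized counts in the shlacZ libraries, 6913 and 11835 under sh4 and 5458 and 4913 under sh8, and SLC7A8, which carries neutral amino acids, averaged 2695 ± 624 (SD, n = 3) under shlacZ and 6832 ± 1505 (SD, n = 4) under knockdown. On the lower side the cationic carrier SLC7A1 gave 6141, 7131 and 7162 normalized counts in the shlacZ libraries, 3727 and 3806 under sh4 and 3562 and 3734 under sh8, with 4 knockdown values spanning 3562 to 3806. The leucine carrier SLC7A5 gave 3958, 6044 and 4869.9 normalized counts in the shlacZ libraries, 2153 and 2518 under sh4 and 2756 and 2428 under sh8. Of the liprin-beta scaffold proteins PPFIBP1 was higher and PPFIBP2 lower. PPFIBP1 gave 2566, 2695 and 2964 normalized counts in the shlacZ libraries, 8642 and 11370 under sh4 and 5783 and 6343 under sh8. PPFIBP2 averaged 96.4 ± 31.3 (SD, n = 3) under shlacZ and 24.6 ± 8.82 (SD, n = 4) under knockdown. Galectin 1 (LGALS1) averaged 48.4 ± 14.8 (SD, n = 3) under shlacZ and 128 ± 39.8 (SD, n = 4) under knockdown and galectin 3 (LGALS3) 4135 ± 183 (SD, n = 3) under shlacZ and 2294 ± 604 (SD, n = 4) under knockdown, in opposite directions. Within the cadherin superfamily CDH19, FAT4 and CELSR3 were among the higher genes and CDH7 and FAT2 among the lower. FAT4 gave 201, 223 and 234 normalized counts in the shlacZ libraries, 523 and 787 under sh4 and 805 and 899 under sh8, and FAT2 149.7, 117 and 149 in the shlacZ libraries, 45.2 and 32.8 under sh4 and 61.95 and 79.2 under sh8.

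**Figure D3:**
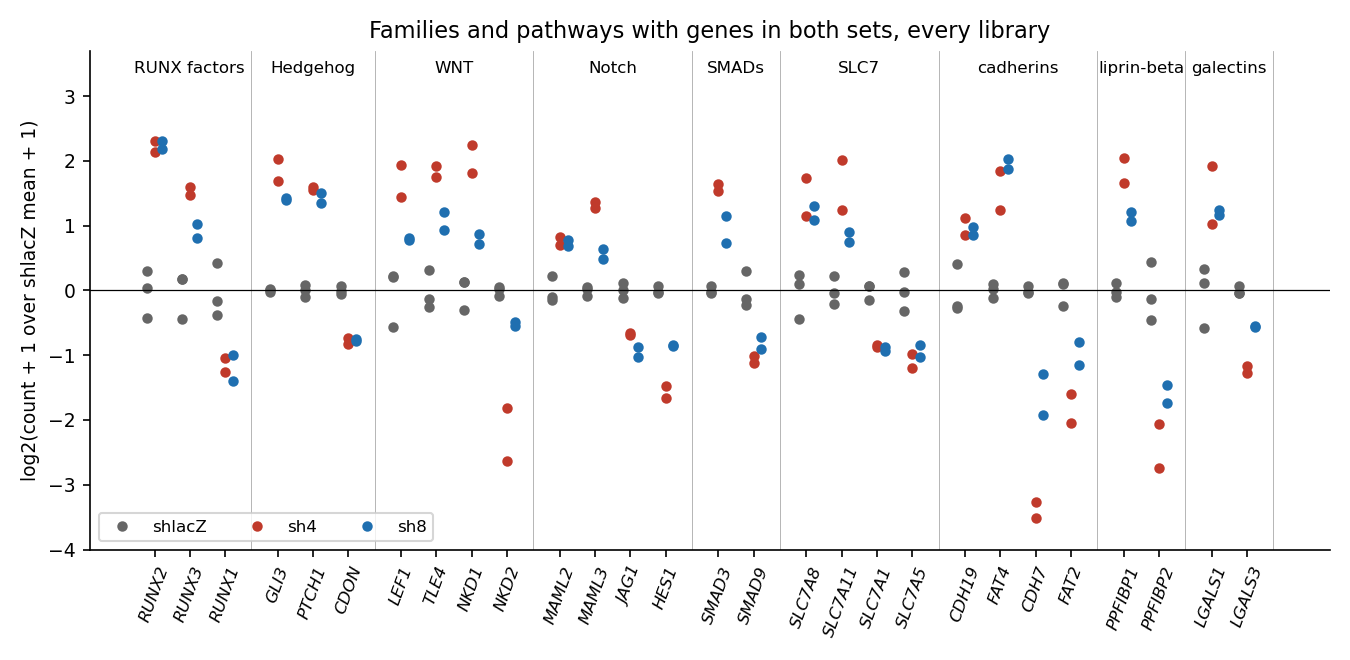
Log2 of (normalized count + 1) over (shlacZ mean + 1) in every library for families and pathways with genes in both sets (grey shlacZ, red sh4, blue sh8). RUNX2 and RUNX3 lie above 0 and RUNX1 below it, and NKD1 and NKD2 and the SLC7 transporters also divide. In the Notch pathway the coactivators MAML2 and MAML3 lie above 0 and JAG1 and HES1, which are not their relatives, below it.

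Non-coding genes were as frequent among the members as elsewhere. Of the higher genes 20 (8.40%) and of the lower genes 14 (8.59%) were annotated as long non-coding RNAs, against 8.53% of all genes with a mean of at least 50. Among the higher ones, ENSG00000277701 averaged 449.9 ± 19.5 (SD, n = 3) under shlacZ and 1385 ± 252 (SD, n = 4) under knockdown and APPAT 608 ± 83.5 (SD, n = 3) under shlacZ and 1672 ± 316 (SD, n = 4) under knockdown. FTX, a long non-coding RNA of the X inactivation centre, gave 1404, 984 and 1017 normalized counts in the shlacZ libraries, 2366 and 1937 under sh4 and 2051 and 2023 under sh8. Among the lower ones LINC02223 gave 2558, 2312 and 1956 normalized counts in the shlacZ libraries, 317 and 219 under sh4 and 1019 and 644 under sh8. SNHG16 and SNHG3, host genes of small nucleolar RNAs, averaged 5427 ± 535 (SD, n = 3) under shlacZ and 2354 ± 728 (SD, n = 4) under knockdown and 3803 ± 429 (SD, n = 3) under shlacZ and 2022 ± 613 (SD, n = 4) under knockdown. Both small nucleolar RNAs in the sets were higher, and SNORA81, of the H/ACA class that guides pseudouridylation, gave 654, 560.4 and 635 normalized counts in the shlacZ libraries, 2255 and 2285 under sh4 and 1644 and 2439 under sh8.

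Protein-coding members had a longer median gene span than the background, though the ranges overlapped widely. The median gene span was 80.9 kb for the 211 protein-coding higher genes and 60.5 kb for the 147 lower ones, against 35.9 kb over all 10720 protein-coding genes with a mean of at least 50. The quartiles were 26.0 and 190.9 kb for the higher, 27.1 and 140.8 kb for the lower and 14.7 and 84.0 kb for all these genes. The median length of the canonical transcript was 4692 and 4207 bases against 3515, and its GC content was 48.3% and 46.2% against 47.4%. All 211 and 147 genes had a value. The median span was thus greater than the background on both sides, whereas the median GC content lay slightly above it for the higher and slightly below it for the lower genes.

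Members lay near each other in 18 pairs within 100 kb, 14 of them in the same direction. The members were 238 higher and 163 lower genes, so many pairs would share a direction in any case. Neither the number of pairs nor their direction was compared with other genes. The closest pair without overlap was SLC2A1 and SLC2A1-DT, on opposite strands. CDK2 (chromosome 12, from 55966781 to 55972789 on the plus strand) lies within the annotated span of PMEL (chromosome 12, from 55954105 to 55973317 on the minus strand), by the GENCODE release on hg38. Both were lower, and values of overlapping genes are uncertain where reads could be assigned to either. Other pairs in the same direction were PPFIBP1 with REP15, LGALS1 with TRIOBP, SLC7A11 with LINC00499, and TRIP13 with NKD2. The 4 pairs on opposite sides were CKB and KLC1, ATP6V0A1 and PSMC3IP, UCN2 and CELSR3, and SNORA81 and RFC4. Among the autosomes and the X chromosome, members made up from 1.45% of the measured genes on chromosome 21 to 5.64% on chromosome 4. Over all genes 1.98% were higher and 1.35% lower. Chromosome 21 held only 1 higher and 1 lower gene of 138 measured, and chromosome 4 held 15 and 8 of 408.

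Promoter windows of 300 bases, from 250 before to 50 after the RefSeq start, were found by symbol for 310 members, 178 higher and 132 lower. The letters TATAAA occurred on either strand in 12 higher (6.74%) and 17 lower (12.9%) windows, against 5.27% of the 9271 windows of genes with a mean of at least 50 and 11.95% of all 27305 windows. At 24 to 36 bases before the start on the strand of the gene, a distance set after the matches were seen, TATAAA was found in 6 lower genes (SLC5A4, LURAP1L-AS1, H2AC17, MUC19, H2AZ1 and ABLIM1; 4.55%) and in 2 higher genes (SLC2A1 and TRIM48; 1.12%), against 1.54% of the measured genes. In the sequences printed above it begins 29 bases before the start in SLC5A4 and 31 in H2AZ1 and SLC2A1. The letters TGANTCA occurred in 6.74% of higher and 7.58% of lower windows, against 3.92% of the measured genes and 7.76% of all windows, for example 134 bases before the start of RNASE1 and 243 before that of RUNX2. TCATGTG was found in 2 higher and 2 lower windows, RUNX2 and CEACAM1 among them, and in none of those of DCT, MLANA and OCA2. The E-box CACGTG was in 8.43% of higher and 10.6% of lower windows against 10.4%, TGACGTCA in 2.81% and 2.27% against 3.61%, TTTCCCGC in 1.12% and 3.03% against 2.78%, and GGAATG in 11.8% and 10.6% against 10.4%. For TTCNNNGAA the shares were 6.18% and 5.303% against 6.12%, for GGGNNTTCC 5.62% and 3.79% against 8.07%, for CCAAT 33.7% and 37.9% against 38.0%, and for CAGCTG 19.1% and 17.4% against 16.4%. A match describes letters in these windows and was not tested as a binding site.

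The hairpins agreed in direction by the rule, but not always in size. On the log2 scale the median change of the higher genes was 1.28 under sh4 and 0.91 under sh8, and that of the lower genes -1.16 and -0.81. The sh4 mean lay farther from control than the sh8 mean for 323 of 401 genes. In limma's test of sh4 against sh8 on log2(normalized count + 1), 85 of the 401 genes passed a Benjamini-Hochberg adjusted p of 0.05 over 15420 genes tested, 46 higher genes (19.3%) and 39 lower genes (23.9%), against 7% of all genes tested (3.67% with sh4 above sh8 and 3.33% with sh4 below). Members had been chosen for lying apart from control in these same libraries, and with a higher minimum mean than the genes tested. Their shares are therefore not on equal terms with the share of all genes tested, and the excess may be partly built in. In 81 of the 85 the change was larger under sh4, and in 4 it was larger under sh8. The test rests on 2 libraries per hairpin, and when sh4 replicate 2 was left out only 15 genes passed, when sh8 replicate 1 was left out 19, and when sh8 replicate 2 was left out 41.

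ITGA10, the alpha chain of a collagen-binding integrin, showed the largest difference. It gave 10.3, 11.5 and 13.05 normalized counts in the shlacZ libraries, 1522 and 975 under sh4 and 38.2 and 33.7 under sh8, a log2 difference of 5.05 ± 0.30 (SE, limma, adjusted p = 0.0001). LMO2, a LIM domain cofactor, gave 5.16, 24.1 and 29.6 normalized counts in the shlacZ libraries, 661 and 949 under sh4 and 58.00 and 71.9 under sh8 (difference 3.60 ± 0.63, adjusted p = 0.0095). RIMS3, of the presynaptic active zone, gave 28.9, 40.8 and 45.2 normalized counts in the shlacZ libraries, 351 and 692 under sh4 and 76.5 and 80.1 under sh8 (difference 2.64 ± 0.34, adjusted p = 0.0028). All of these had sh8 values above control but far below sh4. CRIP2, another LIM domain protein, differed by 2.89 ± 0.32 (adjusted p = 0.0018) and COL22A1, a collagen of tissue junctions, by 2.52 ± 0.57 (adjusted p = 0.028). On the lower side ABCB5, a transporter known from melanoma cells that resist drugs, gave 198, 296 and 241 normalized counts in the shlacZ libraries, 12.4 and 14.9 under sh4 and 73.8 and 87.4 under sh8 (difference -2.48 ± 0.28, adjusted p = 0.0018). DCT gave 16036, 11423 and 9970.3 normalized counts in the shlacZ libraries, 1704 and 893 under sh4 and 6405 and 5805 under sh8 (difference -2.30 ± 0.29, adjusted p = 0.0023), so that sh8 libraries kept a level several times that of sh4 libraries. SPEF2 and CFAP61, both proteins of motile cilia, differed by -1.95 ± 0.37 (adjusted p = 0.013) and -1.93 ± 0.39 (adjusted p = 0.018), and LURAP1L-AS1 by -2.11 ± 0.29 (adjusted p = 0.0036).

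The 4 genes lowered further by sh8, named after their values were seen, were EMP1, PCMT1, CILK1 and PPAT. EMP1, an epithelial membrane protein, gave 2034, 1762 and 2042 normalized counts in the shlacZ libraries, 962 and 1352 under sh4 and 577 and 653 under sh8 (difference 0.89 ± 0.18, adjusted p = 0.016). CILK1, a kinase of cilia, gave 1747, 1745 and 1790.3 normalized counts in the shlacZ libraries, 1248 and 1287 under sh4 and 807 and 735 under sh8 (difference 0.72 ± 0.12, adjusted p = 0.0087). PCMT1, which repairs damaged aspartate residues, differed by 0.59 ± 0.15 (adjusted p = 0.049) and PPAT by 0.63 ± 0.15 (adjusted p = 0.035). Both sh8 libraries lay below both sh4 libraries in all of these.

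For the other 316 genes no difference between the hairpins passed the test, which does not show that the hairpins acted alike. The 95% interval of the difference lay within 1 log2 unit on either side of 0 for 254 of the 401 genes, and it reached a median of 0.45 to either side of the estimate in the higher and 0.41 in the lower set. The interval ran from -0.52 to 0.47 for RUNX2, from -0.16 to 0.46 for PTCH1, from -0.11 to 0.46 for LONRF2, from -0.32 to 0.28 for CDON and from -0.23 to 0.32 for SLC7A1. For PRDM7 it ran from -1.66 to 0.60 and for UBAP1L from -1.35 to 0.74, so that a large difference could not be seen in these.

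**Figure D4:**
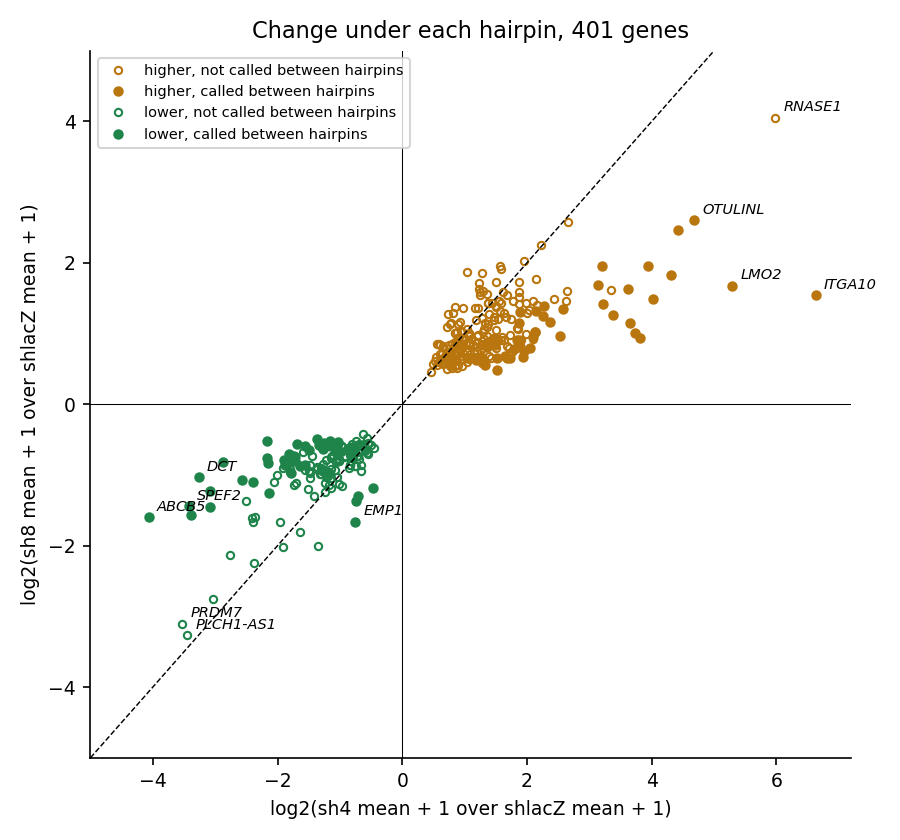
Log2 ratio of sh4 over shlacZ (horizontal) against that of sh8 over shlacZ (vertical) for the 401 genes, each from group means with 1 added. Filled points are the 85 genes that differ between the hairpins (limma, adjusted p under 0.05), most of them beyond the dashed line of equal change on the side of sh4, and the rule leaves the upper left and lower right fields empty.

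How far a single library decides membership was seen by choosing genes without it and then looking at its value. Of the genes chosen without sh4 replicate 1, all 259 higher genes lay above the controls also in that library, and 234 (90.3%) were past 1.3 times. In comparison, 31.2% and 12.01% of all genes with a mean of at least 50 did so. For sh8 replicate 1 the shares were 85.7% and 52.6% of 447 higher genes, against 26.0% and 4.80% of all genes. For shlacZ replicate 1 they were 77.1% and 48.1% of 507 higher genes and 75.5% and 28.9% of 554 lower genes, against 26.4% and 5.87% of all genes on the higher and 23.2% and 4.32% on the lower side. These 2 libraries, sh8 replicate 1 and shlacZ replicate 1, were therefore the ones that limited the number of members most. The genes share the remaining libraries, so these shares are a description and not an independent test.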

How the data were processed

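RNA-seq of 7 libraries of doxycycline-treated 501Mel cells was used. According to the methods, ribosomal RNA was depleted, adapters were trimmed with cutadapt, and reads were aligned to hg38 with STAR and quantified with Salmon. The versions are not given in the sources used here. The authors deposited normalized counts, in which each library was scaled by a single factor. All values (100%) are whole multiples, within 0.01, of what 1 read is worth in their library. Such scaling assumes that most genes do not change.

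Members were found by the rule stated in the report. Members, gene lists and the rule for named genes were chosen with earlier results of these data known, and 4 lists were added after the values were seen. sh4 was compared with sh8 by limma (version 3.58.1, R 4.3.3) on log2(normalized count + 1), in a fit of the 3 groups with a variance trend, for 15420 genes with a mean of at least 10. This scale understates differences of low genes. On simulated data of 15420 genes with known differences between sh4 and sh8, the test found 93% of differences of 1 log2 unit and 100% of those of 2. It also made 11 false calls. The differences were placed only in genes with a mean of at least 50, with the same dispersion for all genes and no outlying library. These rates therefore do not hold for lower genes or for libraries that vary more.

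Named genes were GRASLND, the 15 with the widest separation per direction, up to 4 per list and direction, 3 on either side of the threshold, the 5 largest differences between the hairpins in each direction, and up to 4 per non-coding type. Not all of these are printed, 1 gene near the threshold is not reported here, and genes named beyond them were chosen after their values were seen. Annotation was GENCODE release 44, in which 99.9% of identifiers were found, and promoters were from RefSeq. Depth was 13337317 to 22855232 reads per library, and counting error is greatest for genes near the minimum mean of 50. Not every pair of same-numbered libraries deviated together (correlations 0.475, 0.122, 0.351, -0.150 and about 0), so replicate numbers were not taken as pairs. Alternatives covered the factor, the minimum mean, 3 other scalings, the pseudocount, the variance trend, the replicate block, and leaving out each library.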

Additional observations from a re-analysis of the deposited data

Results flagged for a closer look

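The size of the change differed between the hairpins, by limma's test of sh4 against sh8, for 85 of the 401 agreeing genes. The largest log2 differences, sh4 minus sh8, were 5.05 for ITGA10, 3.60 for LMO2, 2.89 for CRIP2, 2.64 for RIMS3 and 2.52 for COL22A1, all among the higher genes. Among the lower genes they were -2.48 for ABCB5, -2.30 for DCT, -2.11 for LURAP1L-AS1, -1.95 for SPEF2 and -1.93 for CFAP61. Each of these 10 was called at an adjusted p under 0.05 with 2 libraries per hairpin. ITGA10, LMO2, CRIP2 and COL22A1 reached the minimum mean only through the sh4 libraries, so their place here is partly built in. For the 30 leading genes, no knockdown library stood far enough from the other 3 to be singled out by Dixon's criterion. Where the hairpins differ, the values fall into 2 pairs and a single library can hardly be singled out. The genes were also chosen for having every knockdown library apart from control, so this outcome gives no assurance.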

How the results depend on the processing

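The number of agreeing genes depended on the rule. With a factor of 1.2, 1.5 or 2, the higher set held 394, 118 or 33 genes and the lower set 318, 60 or 12, and with no minimum mean they held 503 and 321. Leaving out a library gave 255 to 507 higher and 186 to 554 lower genes, with most of the gain when shlacZ replicate 1 or sh8 replicate 1 (447 and 291) was left out, since fewer libraries must then agree. Without sh8 replicate 2 the lower set held 275. Added after seeing the data, the rule on the sh4 libraries alone gave 1072 higher and 1097 lower genes, and on the sh8 libraries alone 322 and 364. Scaling to the sum of all genes, to the upper quartile or by quantiles left 334, 347 and 343 of the 401 genes in place and moved the higher share from 59.4% to between 63.3% and 67.7%. The number of members that differ between sh4 and sh8, 85, became 35 without the variance trend (the cause was not tested) and lay between 15 (without sh4 replicate 2) and 121 (without shlacZ replicate 1) when a library was left out. An arm left with 1 library was then assumed to vary like the others. With the replicate block, 111 members differed. Of the 10 named differences under 16 alternatives, 144 of 160 values stayed past the threshold, 16 did not and 0 changed sign. Of 1656 list counts under the alternatives, 1247 stayed within 1.5 times. Counting error limits genes near a mean of 50, and 2 libraries per hairpin limit the test of sh4 against sh8.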

Other observations

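A few further genes outside the pathway lists are given here, chosen after their values were seen, and no theme is drawn from them. The first are higher genes. AHNAK, a giant scaffold protein beneath the membrane, averaged 684 ± 137 (SD, n = 3) under shlacZ and 1950.5 ± 190.3 (SD, n = 4) under knockdown. CAV1, the caveolar coat protein, averaged 494 ± 75.6 (SD, n = 3) under shlacZ and 1207 ± 371 (SD, n = 4) under knockdown. S100A10 and S100A13, small calcium-binding proteins, were the higher ones of 13 measured S100 and annexin genes, a list added after the values were seen. MICAL2, which oxidises actin, gave 569.7, 924 and 914 normalized counts in the shlacZ libraries, 1578 and 2239 under sh4 and 2342 and 2500.0 under sh8.

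The others are lower genes. The mitochondrial lists held 1 lower gene each, of 80 measured for the respiratory chain and ATP synthase, 78 for the mitochondrial ribosome and 37 for SLC25 carriers, beside 1.35% of all genes. TIMM50, of the inner membrane import channel, averaged 1997 ± 309.8 (SD, n = 3) under shlacZ and 929 ± 185 (SD, n = 4) under knockdown. LONP1, the matrix protease, averaged 1797 ± 239 (SD, n = 3) under shlacZ and 1082 ± 53.6 (SD, n = 4) under knockdown. UPP1, which splits uridine to release ribose phosphate, averaged 1287 ± 111 (SD, n = 3) under shlacZ and 593 ± 68.1 (SD, n = 4) under knockdown. These values come from the contrast that chose the genes and carry no test.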
